A study of Mus musculus with 3 samples.

Results

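The Hox genes of wild-type mouse embryonic fibroblasts (MEFs) were described by cluster and by paralog number in each of 3 clones. The members were all rows of the gene count table whose symbol is Hox, a cluster letter from a to d and a number from 1 to 13. They came to 38 of the 21782 genes in the table, 11 of cluster a, 10 of cluster b, 9 of cluster c and 8 of cluster d. The table holds no row for Hoxd4, so the sums and shares of its cluster and of its paralog number leave it out. Other positions of the clusters were not analysed here. The study mapped cohesin and its regulators in MEFs, and its RNA-seq series holds 1 condition, with 1 library of polyA-selected RNA for each of 3 clones of WT cells. The fibroblasts were grown from embryos at E12.5, were of the WT genotype with no treatment named, and they were collected while cycling freely. A MEF culture is made from much of the embryo's body and so mixes fibroblasts of many body regions. The labels do not say whether the clones came from separate embryos, so differences between libraries may be technical.

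Hox proteins are homeodomain transcription factors that give cells of the embryo a position along the head-to-tail axis and along the limbs. Their genes lie in clusters that arose by duplication, and genes with the same number in different clusters are paralogs. Low numbers lie at the end of a cluster that is used early and as far forward as the hindbrain, and high numbers are used later, in the trunk, tail and distal limbs. Fibroblasts are known to keep much of the Hox pattern of the place they came from, also in culture.

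Total counts were 25261357, 22594316 and 24791198 in clones 1, 2 and 3, and levels are given as CPM, the counts per 1000000 counts of a library size scaled by the TMM method. All 10 fibroblast markers were at 1 CPM or more in every clone, among them Col1a1, Col1a2 and Vim, with summed levels of 58526, 48284 and 47178 CPM in clones 1, 2 and 3. Clone 2 stood apart in its macrophage markers, which summed to 1704 CPM there and to 364 and 299 CPM in clones 1 and 3. All 10 of them were highest in clone 2 and none was at 0. The 6 cycling genes were also highest in clone 2, with sums of 368, 723 and 609 CPM. The 38 Hox genes together had 8793, 5415 and 7697 counts, or 354, 240 and 305 CPM (mean 299.6 ± 57.1 SD, n = 3), so clone 2 was the lowest and clone 1 the highest.

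Most Hox genes were transcribed in every clone. Of the 38 members, 31 (81.6%) were at 1 CPM or more in all 3 clones, against 52.2% of all genes in the table. These were 10 of 11 members in cluster a, 8 of 10 in b, 6 of 9 in c and 7 of 8 in d. By position, all 14 members with paralog numbers 4 to 8 passed, whereas 6 of 8 with numbers 1 to 3 and 11 of 16 with numbers 9 to 13 did. The members without detectable transcripts lay at or next to the ends of the clusters. Hoxb1, which acts in the hindbrain, had 1, 0 and 0 counts in clones 1, 2 and 3. Hoxd1 had 0, 1 and 0 counts. Towards the other end, Hoxc12, next to the last gene of its cluster, had 0, 0 and 2 counts. None of these exceeded 3 counts in any clone, the upper limit that a count of 0 allows, which is 0.121, 0.133 and 0.119 CPM in clones 1, 2 and 3.

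The 4 members that were detected below 1 CPM all had high numbers. Hoxa13, which acts in the hands, feet and hindgut, had 17, 16 and 20 counts and was nearly even between clones. Hoxc13, known for its role in hair and nails, had 12, 3 and 18 counts. Hoxc11 had 3, 2 and 7 counts, and Hoxb13, a gene of the tail bud and later of the prostate, had 2, 0 and 5 counts. All but Hoxa13 were highest in clone 3 and lowest in clone 2. Of these, only Hoxc13 had enough counts to be tested, and a chi-square test of its 3 counts found more than counting error between clones (adjusted p = 0.0210). The members just above the 1 CPM line were Hoxa6, Hoxd3 and Hoxd12, whose lowest clones were at 1.15, 1.07 and 1.15 CPM.

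**Figure D1:**
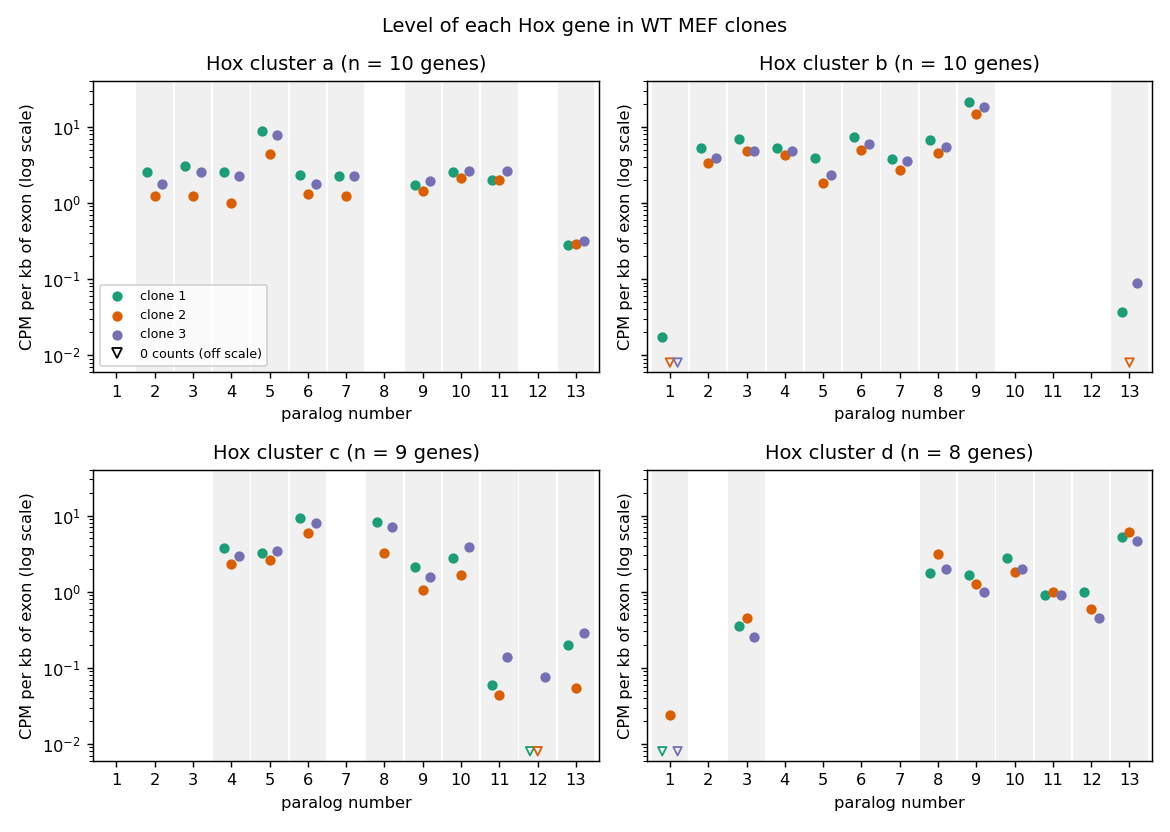
Each point is the level of 1 Hox gene in 1 clone, in CPM per kb of exon on a log axis, against its paralog number, with 1 panel per cluster and 1 colour per clone. Grey columns mark the 37 members drawn, white columns hold none, and open triangles mark a count of 0. Hoxb9 is the highest point of all in every clone, and the levels drop at Hoxb13, Hoxa13 and from Hoxc11 on, but not at Hoxd13.

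To compare levels between genes, CPM were divided by the length of all annotated exons of the gene. Hoxb9 (chr11:96271457-96276595, GRCm38, plus strand), a gene of the thoracic region, had 1370, 846 and 1184 counts, or 55.1, 37.5 and 46.9 CPM. Its level per length was 18.1 ± 3.43 CPM per kb (SD, n = 3), the highest of the 38, and its range over clones did not overlap that of the next gene. Hoxc6 followed at 7.76 ± 1.80 CPM per kb and Hoxa5, which acts in the lung and the neck, at 7.01 ± 2.38. Then came Hoxc8 at 6.15 ± 2.61, Hoxb6 at 6.08 ± 1.15, Hoxb8 at 5.60 ± 1.08, Hoxb3 at 5.50 ± 1.16 and Hoxd13 at 5.30 ± 0.747 CPM per kb. Below Hoxb9 the order was not resolved between most neighbours. Among the 31 expressed members, the ranges over clones were separate only between Hoxb9 and Hoxc6 and between Hoxd9 (1.30 ± 0.321) and Hoxd11 (0.930 ± 0.0429). With the exact permutation test, 3 values against 3 cannot give a p below 0.10. Hox levels were modest. The median of the expressed members was 2.45 CPM per kb against 5.49 over 10982 expressed genes with a known length, and Hoxb9 lay above 79.7% of those genes.

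Within each cluster the profile along the paralog numbers had its own shape. In cluster a, levels were flat with 1 peak. Hoxa5 was 3.63 times Hoxa4 and 3.87 times Hoxa6 per kb, and the remaining members from Hoxa2 to Hoxa11 lay between 1.70 and 2.45 CPM per kb. Hoxa11, which acts in the forearm, lower leg and kidney, was 7.46 times Hoxa13. In cluster b, Hoxb9 was 3.23 times its neighbour Hoxb8, and the step down came between Hoxb9 and Hoxb13. In cluster c, Hoxc6 and Hoxc8 were the highest, Hoxc8 was 3.95 times Hoxc9, and the largest step lay between Hoxc10, at 2.75 CPM per kb, and Hoxc11, at 0.0803. Cluster d rose and fell before its last gene. Hoxd3 was at 0.355 CPM per kb, Hoxd8 at 2.29, Hoxd9 at 1.30 and Hoxd10 at 2.20. Then came Hoxd11 at 0.930, Hoxd12 at 0.683 and Hoxd13 at 5.30. The last gene of the cluster was thus its highest and was 7.75 times Hoxd12, without a steady rise towards it. The ranges over clones of both genes did not overlap in any of the pairs given here as multiples. As a description over the members of a cluster in the same libraries, Spearman's rho of mean level per kb against paralog number was -0.03 in a (11 genes), 0.30 in b (10), -0.78 in c (9) and 0.55 in d (8), and -0.19 over all 38.

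Grouped by paralog number, the mean summed level per kb increased from 6.04 ± 1.66 CPM per kb (SD, n = 3) at number 2 to number 6, where it was 15.7 ± 3.44 CPM per kb (SD, n = 3), dipped to 5.26 ± 1.14 at number 7 and was highest at number 9, at 22.6 ± 4.27. These sums cover 2 genes at numbers 2 and 7, 3 at numbers 3 to 6 and 8, and 4 at number 9. They were not divided by the number of genes, so the dip and the peak partly follow it. Single members carried some of the sums. Hoxb9 made up 79.8% of number 9. Hoxd12 made up 96.4% of number 12 and Hoxd13 91.1% of number 13. In the middle the paralogs shared the sum, with the largest part going to Hoxb4 (49.2%), Hoxa5 (54.8%), Hoxc6 (49.6%) and Hoxc8 (43.8%) at numbers 4, 5, 6 and 8. At number 10 the largest part was Hoxc10 with 37.1%, beside Hoxa10 and Hoxd10 at 2.45 and 2.20 CPM per kb.

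Cluster b gave 45.5% ± 2.02 of all Hox counts (SD, n = 3), cluster a 22.2% ± 2.29, cluster c 20.8% ± 2.63 and cluster d 11.5% ± 3.50. Per kb of exon, the shares were 44.6%, 21.9%, 21.5% and 12.0%. The share of cluster d was 9.62% in clone 1 (95% Wilson interval 9.02 to 10.3), 15.6% in clone 2 (14.6 to 16.6) and 9.41% in clone 3 (8.77 to 10.1). Clone 2 thus stood above the others by more than counting error, while clones 1 and 3 overlapped. These intervals cover counting error only. The summed level of cluster d was 34.1, 37.4 and 28.7 CPM in clones 1, 2 and 3, whereas that of cluster a was 78.6, 47.8 and 74.6 CPM, that of b 165, 112 and 132 CPM and that of c 76.2, 42.9 and 70.0 CPM. Clone 2 was the lowest in clusters a, b and c and the highest in d. In a culture of mixed cells, fewer cells of a type and less RNA per cell cannot be told apart. By position, members 4 to 8 gave 44.7% ± 1.89 of the counts, members 9 to 13 35.4% ± 2.27 and members 1 to 3 19.9% ± 1.31. Per kb these became 50.6%, 35.5% and 13.9%.

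**Figure D2:**
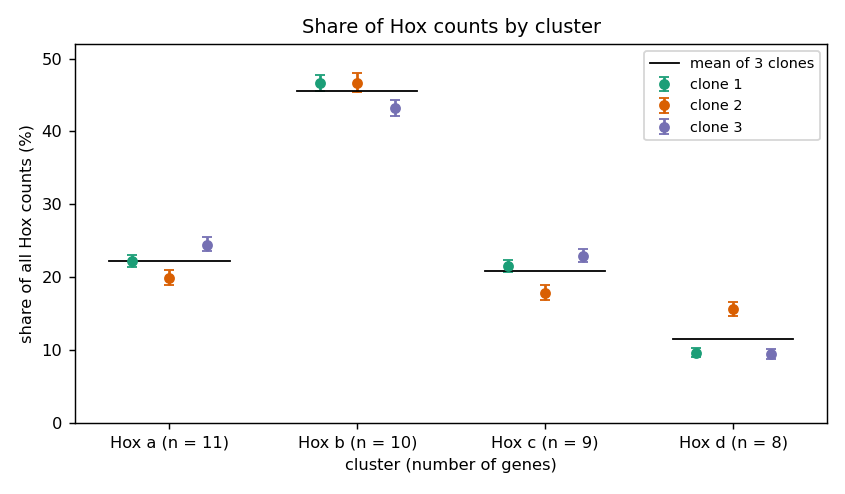
Points give the share of all Hox counts in percent that fell to each cluster in each clone, with 95% Wilson intervals as bars and the mean of 3 clones as a line. Cluster b holds the largest share in every clone, from 43.2% to 46.7%, and the share of cluster d is 15.6% in clone 2 against 9.62% and 9.41%.

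The libraries were then compared gene by gene, in 2 ways. A chi-square test of the 3 counts asked whether a gene differed between libraries by more than counting error. A second test asked whether it differed by more than genes of its level usually did between these clones. Both were run on 12608 genes with a mean of at least 10 counts, 33 of them Hox genes. By the first test, 24 of 33 Hox genes (72.7%) differed at an adjusted p under 0.05, against 62.2% of all tested genes. By the second, with the spread fitted by edgeR, 0 of 33 passed, against 2.17% of all tested genes. At an unadjusted p under 0.05, 2 of 33 passed, Hoxa3 and Hoxc8, against 6.56% of all tested genes. The median SD of log2(CPM + 1) between clones was 0.27 over the tested Hox genes and 0.15 over all tested genes. The plot of spread against level shows where they lie.

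**Figure D3:**
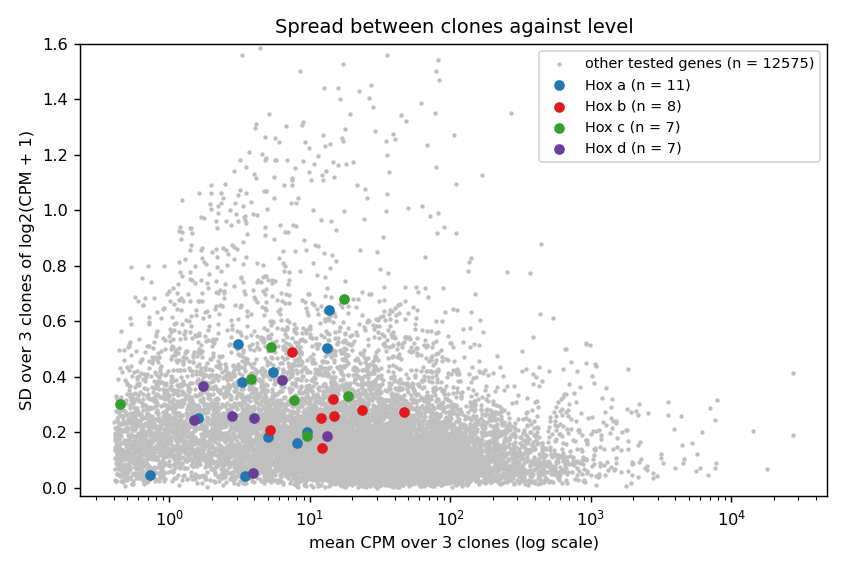
Each point is 1 tested gene, with its mean CPM over the 3 clones on a log axis and the SD over the clones of log2(CPM + 1). Other genes are grey, Hox genes are coloured by cluster, and 2 genes above an SD of 1.6 are not drawn. Hoxc8 and Hoxa3 are the highest Hox points, Hoxd11 and Hoxa13 are among the lowest, and all lie within the cloud of other genes.

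The differences had a common direction in 3 of the 4 clusters. Clone 2 was the lowest of the clones for 24 of 33 tested Hox genes, against 35.1% of all tested genes. Clone 1 was the highest for 20 of 33 (37.7% of all tested genes), clone 3 for 8 (27%) and clone 2 for 5 (35.3%). The genes lowest in clone 2 were 9 of 11 in cluster a, 7 of 8 in b, 7 of 7 in c and 1 of 7 in d. Of the 33 tested Hox genes, 19 were both called on counting error and lowest in clone 2, as were 21.1% of all tested genes. Another 2 of the 33 were called and highest there, as were 23.6% of all tested genes. The level in clone 2 divided by the mean of clones 1 and 3 had a median of 0.641 in cluster a, 0.746 in b, 0.572 in c and 1.08 in d. Over all tested genes this median was 0.997. By position, this median was 0.787 for paralogs 1 to 3, 0.674 for 4 to 8 and 0.806 for 9 to 13. Set against each gene's own mean log2(CPM + 1), the expressed members had a median of 0.26, -0.25 and 0.01 in clones 1, 2 and 3, and those of cluster d had 0.01, 0.06 and -0.18. Macrophage markers were higher in clone 2, with all 10 called by the second test, and the cycling genes were highest there too, as given above. The median ratio was 0.901 for the 10 fibroblast markers, of which 4 were lowest in clone 2. The part that macrophages, cycling cells or the library played in the Hox levels was not tested. Since each clone is 1 library, clone, culture and library cannot be told apart.

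**Figure D4:**
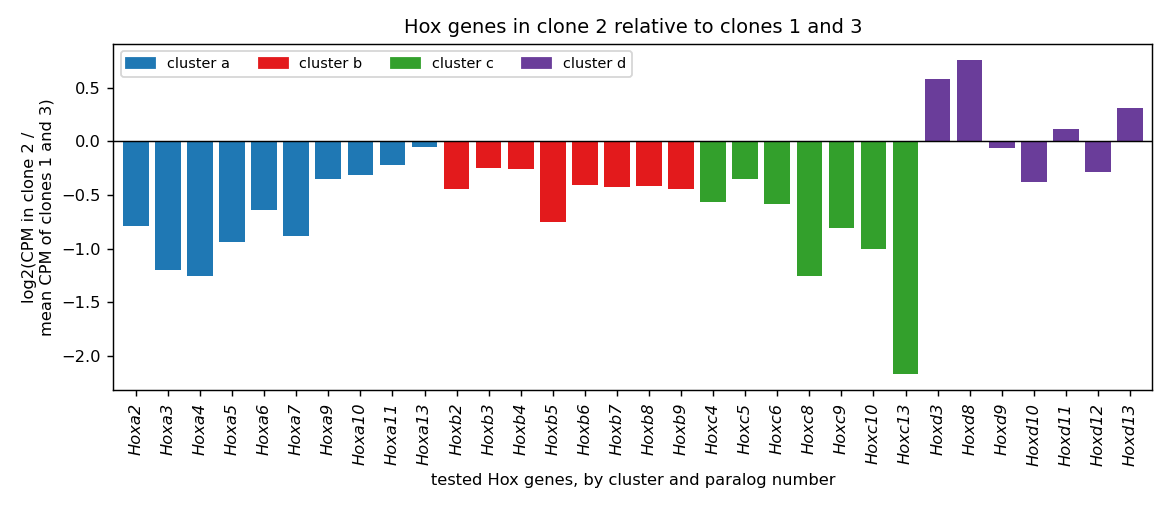
Bars give, for 32 of the 33 tested Hox genes, log2 of its CPM in clone 2 divided by the mean CPM of clones 1 and 3, in order of cluster and paralog number and coloured by cluster. In cluster a the bars are longest from Hoxa2 to Hoxa7 and shorten towards Hoxa13, all bars of b and c point down, and Hoxd3, Hoxd8, Hoxd11 and Hoxd13 point up.

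In cluster a the lower level in clone 2 was seen mainly from Hoxa2 to Hoxa7. Hoxa3, which is needed for the thymus and parathyroid, had 453, 166 and 391 counts, a ratio of 0.437 (adjusted p = 4.63e-23 on counting error and 0.376 against the usual spread). Hoxa4 had 101, 36 and 90 counts, a ratio of 0.419 (adjusted p = 9.34e-06 on counting error). For both genes clone 2 was well below clones 1 and 3. Clones 1 and 3 were close for Hoxa4. For Hoxa3 they were at 18.2 and 15.5 CPM and still differed by more than counting error. Hoxa5 had 416, 184 and 368 counts (ratio 0.521), Hoxa7 had 160, 79 and 163 (0.543) and Hoxa2, which patterns the second pharyngeal arch, had 111, 50 and 80 (0.581). Each of these passed on counting error, whereas Hoxa6, with 51, 26 and 39 counts, did not (adjusted p = 0.0740). Towards the other end the clones drew together. Hoxa9, a gene of blood progenitors as well as of the trunk, had 236, 181 and 276 counts (0.786), Hoxa10 had 210, 156 and 220 (0.806), Hoxa11 had 115, 102 and 150 (0.856) and Hoxa13 was at 0.961. Only Hoxa9 among these passed on counting error, at an adjusted p of 0.00998.

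Cluster b moved less, and clone 1 was the highest for all 8 tested genes. Hoxb9 had a ratio of 0.736 in clone 2 (adjusted p = 6.74e-17 on counting error). Hoxb5 had the lowest ratio of the cluster, 0.593, with 271, 116 and 163 counts. Hoxb2, a hindbrain gene, had 463, 265 and 339 counts, and Hoxb3 had 723, 468 and 513. In Hoxb3 clones 2 and 3 were alike at 20.8 and 20.3 CPM and clone 1 stood above them at 29.1 CPM. Hoxb6 had 355, 221 and 297 counts and Hoxb8 440, 272 and 366, and both passed on counting error. Hoxb4, known for its role in blood stem cells, and Hoxb7 did not pass, with 333, 245 and 316 counts and 144, 95 and 140 counts (adjusted p = 0.0659 and 0.0617).

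All 7 tested members of cluster c were lowest in clone 2 and all 7 passed on counting error. Hoxc8, a gene of the thoracic region and its motor neurons, had 571, 204 and 511 counts, or 23.0, 9.05 and 20.2 CPM. Its ratio was 0.419, and it came nearest of the members to passing the second test (adjusted p = 8.01e-31 on counting error and 0.197 against the usual spread). Hoxc6 had 562, 317 and 490 counts (0.669), Hoxc4 had 239, 132 and 193 (0.678), Hoxc5 had 249, 181 and 265 (0.783) and Hoxc9 had 126, 57 and 95 (0.572). Hoxc10, a gene of the lumbar region and the hindlimb, had 130, 71 and 186 counts, so clone 3 was highest, clone 2 lowest, and the 3 clones differed from each other. Hoxc13, at 12, 3 and 18 counts, had the same order of clones.

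Cluster d was mixed in direction, with clone 2 the highest for 4 of 7 tested genes and the lowest for 1. Hoxd8 had 119, 195 and 137 counts, or 4.79, 8.65 and 5.42 CPM, with clone 2 at 1.69 times the mean of the others (adjusted p = 3.78e-07 on counting error). Hoxd13, the gene of the digits, had 320, 341 and 289 counts, or 12.9, 15.1 and 11.4 CPM, with clone 2 at 1.24 times the others (adjusted p = 0.00412). These were the only members that passed on counting error and were highest in clone 2, and neither passed against the usual spread, at unadjusted p of 0.199 and 0.619 from the chi-square test with edgeR's dispersion. Hoxd11 was even, with 95, 93 and 96 counts (adjusted p = 0.850), and Hoxd3 had 37, 43 and 27 counts (0.0873). The remaining members were highest in clone 1. Hoxd10 had 125, 75 and 92 counts, Hoxd9 had 87, 61 and 54, and Hoxd12 had 63, 34 and 29, and each passed on counting error. Clone 3 was the lowest for 5 of the 7 tested genes, Hoxd3, Hoxd9, Hoxd11, Hoxd12 and Hoxd13. It was the lowest for 0 of 11 in cluster a, 1 of 8 in b and 0 of 7 in c.

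Promoter sequences were compared because neighbours within cluster d moved in different directions. RefSeq promoters (GRCm38.p6, 250 bases before to 50 bases after the start of the gene) were matched for 21 of the 38 members. The windows of 4 members are shown 5′ to 3′, with every CG pair in capitals. Hoxd13 (chr2:74667975-74668274) and Hoxd8 (chr2:74704365-74704664) are the members that passed on counting error and were highest in clone 2. In the same cluster, Hoxd3 and Hoxd11 were also highest there but did not pass. Hoxd1 (chr2:74762730-74763029) is the member of that cluster that was not detected. Hoxb8 (chr11:96281655-96281954) is a gene of cluster b that was lowest in clone 2. All 4 lie on the plus strand.
Hoxd13 promoter: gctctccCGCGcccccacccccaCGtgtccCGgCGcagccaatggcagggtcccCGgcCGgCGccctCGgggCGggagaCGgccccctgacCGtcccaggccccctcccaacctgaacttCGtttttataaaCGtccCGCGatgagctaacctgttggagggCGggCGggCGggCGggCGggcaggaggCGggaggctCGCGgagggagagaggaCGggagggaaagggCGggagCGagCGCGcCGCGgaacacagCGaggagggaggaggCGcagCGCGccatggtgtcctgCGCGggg
Hoxd8 promoter: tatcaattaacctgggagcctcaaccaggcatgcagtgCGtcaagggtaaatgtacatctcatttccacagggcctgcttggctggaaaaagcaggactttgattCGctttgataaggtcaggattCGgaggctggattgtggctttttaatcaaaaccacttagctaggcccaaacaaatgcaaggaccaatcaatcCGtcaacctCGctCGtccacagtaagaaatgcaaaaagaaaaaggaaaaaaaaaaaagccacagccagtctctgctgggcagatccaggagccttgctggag
Hoxd1 promoter: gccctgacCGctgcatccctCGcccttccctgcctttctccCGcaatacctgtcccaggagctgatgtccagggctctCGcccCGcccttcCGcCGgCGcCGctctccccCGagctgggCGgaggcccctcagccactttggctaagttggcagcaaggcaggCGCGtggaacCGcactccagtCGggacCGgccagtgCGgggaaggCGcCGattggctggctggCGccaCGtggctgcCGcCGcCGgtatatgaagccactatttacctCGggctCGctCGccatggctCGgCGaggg
Hoxb8 promoter: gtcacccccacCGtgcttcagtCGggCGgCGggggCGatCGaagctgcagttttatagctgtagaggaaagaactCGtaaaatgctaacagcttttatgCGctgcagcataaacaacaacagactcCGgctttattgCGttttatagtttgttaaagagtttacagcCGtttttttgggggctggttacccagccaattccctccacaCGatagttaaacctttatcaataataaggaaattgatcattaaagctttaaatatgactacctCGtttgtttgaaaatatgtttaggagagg
The windows differ widely in CG content. Hoxd13 holds 37 CG pairs, Hoxd1 29, Hoxb8 13 and Hoxd8 6, while the median was 14 both over the 21 members and over 15822 promoters of genes in the table. Hoxd1, which was not detected, held more CG pairs than Hoxd8. Hoxb1, also not detected, held 10, and Hoxc12 was not among the 21 matched. Searched on both strands, the CCAAT box (CCAAT) was in 13 of 21 members (61.9%) and in 38.8% of all promoters, and all 4 windows shown hold it. The TATA box (TATAAA) was in Hoxb8 and Hoxd13 only (9.52%, against 12.8%). The letters TGATTNAT, bound by PBX with HOX proteins, were in Hoxa2 only (4.76%, against 2.83%), and the homeodomain core TAATTA was in Hoxd11 only (4.76%, against 4.54%). None of these words contains another. A match is a description of the letters and not a site of binding.

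MicroRNA genes also lie inside the clusters, and 2 families with a shared seed are known for targets among the Hox genes themselves. Their mature sequences (RefSeq, GRCm38.p6) are shown with the seed, bases 2 to 8, in capitals.
mmu-miR-10a-5p: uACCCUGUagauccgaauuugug
mmu-miR-10b-5p: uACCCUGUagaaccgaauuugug
mmu-miR-196a-5p: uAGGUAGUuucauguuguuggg
mmu-miR-196b-5p: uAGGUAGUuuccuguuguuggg
Mature microRNAs were not measured, since the libraries were made from polyA-selected RNA. The row for the microRNA gene Mir196a-1 in cluster b had 15, 9 and 19 counts. Those for Mir10a, Mir10b, Mir196b and Mir196a-2 had 0 in every clone. The letters ACTACCT, the match to the miR-196 seed, were in the annotated 3′ UTR of 8 of 38 members (21.1%), against 5.64% of 18641 genes. These were Hoxa4, Hoxa5, Hoxa7, Hoxa9, Hoxb1, Hoxb6, Hoxb7 and Hoxc8. The match to the miR-10 seed, ACAGGGT, was in 4 members (10.5%), among them Hoxa3, Hoxb3 and Hoxd1, against 11.6% of genes. Hoxb8 has no seed match by this rule but has a longer site for miR-196a in the 3′ UTR, in exon 2 of 2 at chr11:96284888-96284909 (GRCm38, plus strand), where 21 of 22 bases pair by Watson-Crick rules and 1 as G:U.
Hoxb8 site: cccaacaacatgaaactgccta
Among tested members with the miR-196 seed match, the ratio in clone 2 was 0.419 in Hoxa4 and Hoxc8, 0.521 in Hoxa5 and 0.543 in Hoxa7. It was 0.743 in Hoxb7, 0.753 in Hoxb6 and 0.786 in Hoxa9. Hoxb8 was at 0.749, and the median over all tested Hox genes was 0.749. The part that microRNAs played in the Hox levels was not tested.

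The other genes of the pathway were taken from a list of cofactors, upstream regulators and chromatin factors, of which 28 of 31 were in the table. Of these, 16 were at 1 CPM or more in every clone. Of 17 tested, 12 passed on counting error, against 62.2% of all tested genes. By the second test with edgeR's spread 0 passed, against 2.17%. Of the cofactors that bind DNA with Hox proteins, Pbx4 (37, 21 and 36 counts) was below 1 CPM in clone 2. Meis1 had 649, 593 and 625 counts and Meis2 had 990, 588 and 864. Meis2 was lowest in clone 2 with a ratio of 0.704, while Meis1 was even at 1.03. The early activators of Hox clusters Cdx1, Cdx2 and Cdx4, the ParaHox genes Gsx1, Gsx2 and Pdx1 and the retinoic acid hydroxylase Cyp26a1 had 0 counts in every clone. The retinoic acid receptors Rara and Rarg were at 53.1 ± 4.35 and 61.6 ± 2.86 CPM (SD, n = 3). Bmi1 and Ezh2, subunits of the Polycomb complexes that keep Hox genes silent, were at 25.7 ± 4.80 and 30.4 ± 9.10 CPM. The median ratio in clone 2 over the tested genes of the list was 0.937.

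Markers of body regions other than Hox genes were present together. Of 10 listed, 6 were at 1 CPM or more in every clone. Of 6 tested, 3 passed on counting error, against 62.2% of all tested genes, and 0 by the second test with edgeR's spread, against 2.17%. The hindlimb genes Pitx1 and Tbx4 had 98, 40 and 127 counts and 81, 45 and 113 counts. Both were lowest in clone 2 and highest in clone 3. Among tested Hox genes, Hoxa7, Hoxa9, Hoxa10, Hoxa11, Hoxc5, Hoxc10 and Hoxc13 had the same order of clones. The forelimb gene Tbx5 was even, with 77, 81 and 72 counts. Isl1 had 8, 2 and 10 counts. En1 had 268, 249 and 291 counts and Emx2 had 311, 215 and 292, whereas Otx2 and En2 were at 0 and Otx1 at 2, 2 and 0 counts. The defining neural markers Sox2 (3, 2 and 7 counts) and Pax6 (0, 0 and 1) were at or near the floor. The whole neural list, of which 3 of 7 genes were at 1 CPM or more, summed to 955, 649 and 896 CPM, mostly Nes. Among skeletal muscle genes, Des had 1778, 701 and 2438 counts and Myh3 6, 0 and 47, and both passed the second test (1 of 5 genes at 1 CPM or more, sums of 72.0, 31.1 and 99.7 CPM). Cartilage genes summed to 794, 548 and 775 CPM with 3 of 5 at 1 CPM or more, epithelial genes to 3.42, 3.59 and 7.09 CPM, endothelial genes to 8.01, 11.7 and 13.4 CPM, and the 3 listed erythroid genes did not exceed 3 counts. The neural, muscle and cartilage sums were lowest in clone 2, as was the Hox sum, but the cartilage sum was carried by Col2a1 (18263, 10979 and 18297 counts), and Acan and Sox9 were highest in clone 2. Their part in the Hox levels was not tested.

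Genes around the clusters were compared with those inside. Of the 24 protein-coding genes nearest to the cluster ends, 3 on each side, 19 were at 1 CPM or more in every clone. Of 20 tested, 8 were lowest in clone 2, against 35.1% of all tested genes, and the median ratio was 0.966. On counting error 12 of the 20 passed, against 62.2% of all tested genes. By the second test with edgeR's spread 0 passed, against 2.17%. The 5 below that level were Skap1, Calcoco2 and Ttll6 beside cluster b, and Evx1 and Evx2, homeobox genes at the high-number ends of clusters a and d, with 1, 0 and 1 counts and 2, 6 and 4 counts. Evx2 was thus near the floor beside Hoxd13, the highest gene of its cluster. Of the 8 other rows inside the clusters, Gm53, a long noncoding RNA of cluster b, was the only one at 1 CPM or more in every clone, with 133, 102 and 110 counts. Hotair, a long noncoding RNA of cluster c between Hoxc11 and Hoxc12, had 2, 1 and 4 counts, as low as both of its neighbours.

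Overlapping annotation limits some of these levels. In GENCODE M21, 15 members share exons with another gene, 8 on the same strand and 9 on the opposite strand. The shares were largest for Hoxd3 (62.3% of its exon bases on the same strand) and Hoxb3 (52.9% on the opposite strand). The strand setting is not given in the sources used here, so reads of such genes and their partners cannot be told apart, and reads in shared exons may have been dropped. Reads from near-identical copies are a smaller limit. Of 76858 stretches of 86 bases in the transcripts of the members, 5 matched a gene elsewhere with up to 2 mismatches, all of them in Hoxc9.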

How the data were processed

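RNA-seq libraries of 3 WT MEF clones were analysed. Per the labels and the methods of the paper, the authors prepared polyA-selected libraries, aligned single-end reads of 86 nt and counted them per gene with HTSeq. The aligner was TopHat2 (version 2.0.0), run with Bowtie (version 0.12.7) and SAMtools (version 0.1.16). The deposited table holds these raw counts, not normalized. The methods name mm10 and the submitters' processing notes mm9. The HTSeq version, annotation and strand setting are not given in the sources used here. Total counts ranged from 22594316 to 25261357. A count of 0 allows up to 3 counts.

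CPM used TMM library sizes (edgeR 4.0.16, R 4.3.3). Expressed means that all 3 clones had 1 CPM or more. With a mean of at least 10 counts, genes were tested with a Pearson chi-square test (2 degrees of freedom), either on counting error or with negative binomial variance at edgeR's trended dispersion (the usual spread of genes of that level), with Benjamini-Hochberg adjustment over all tested genes and a threshold of 0.05. With 1 condition, no groups were compared. The p-values measure only differences between libraries, and the second test draws its spread from the same libraries. The biological coefficient of variation was 0.193. On simulated data, the first test recovered 91% of 200 genes changed 2-fold among 12548 genes with 10 false calls. The second recovered 89.5% of 200 changed 4-fold among 12534 with 1 false call. Expressed Hox genes differed at most 2.55-fold between clones (Hoxa4). The second test was not simulated at changes that small, so its recovery of them is not known.

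Exon lengths, overlaps and 3′ UTRs came from GENCODE M21 (GRCm38), which held 21117 of the genes by symbol. Promoters and microRNAs came from RefSeq. The members and lists were chosen with earlier results of these data known. All Hox genes could be named, with genes inside the clusters, the 3 nearest protein-coding genes on each side, and genes of the lists: Hox cofactors and pathway, regional markers, fibroblast, macrophage, neural, epithelial, endothelial, erythroid, skeletal muscle, cartilage and cycling genes. Alternatives were DESeq2 1.42.0 size factors, total counts, other count and CPM minimums, thinned counts, a pseudocount of 0.5, other gene lengths, a common dispersion, and leaving out each clone or members with shared exons. Scripts ran in Python 3.11.15 (scipy 1.17.1, numpy 2.4.6, pandas 2.3.3), and plots were drawn with matplotlib 3.10.9. Values of some single genes under this rule are not reported here. ChIP-seq data were not analysed here.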

Additional observations from a re-analysis of the deposited data

How the results depend on the processing

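No paired analysis was possible because all samples belong to 1 group. Hoxb9 stayed first under both other gene lengths, and the second test called 0 Hox genes under each alternative run. The count of Hox genes lowest in clone 2, whose alternatives were chosen after seeing the data, was 24 of 33 with DESeq2 size factors and with total counts, and 13 of 18 among members without shared exons. It was 25 without clone 1 and 27 without clone 3, where 50.6% and 49.2% of all tested genes were lower in clone 2. Cluster d kept 1 of 7 lowest and 4 of 7 highest in clone 2 under both scalings.

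With a minimum of 5 CPM in place of 1, 16 members were expressed in place of 31, as a stricter limit must lower it. Calls on counting error were 24 with all clones and between 13 and 23 with 1 clone left out, where 1 clone fewer was compared. They were 13 of 33 without clone 1 (39.4%, against 32.1% of all tested genes), 14 of 33 without clone 2 (42.4%, against 45.1%) and 23 of 32 without clone 3 (71.9%, against 53%), so that without clone 2 the share of Hox genes was below that of all genes. Without clone 2, 10 members lost the call (Hoxa4, Hoxa5, Hoxa7, Hoxa9, Hoxc5, Hoxc8, Hoxc9, Hoxc13, Hoxd8 and Hoxd13), without clone 1, 11 did (Hoxa2, Hoxb2, Hoxb3, Hoxb5, Hoxb6, Hoxb8, Hoxc4, Hoxc9, Hoxd9, Hoxd10 and Hoxd12), and without clone 3, 3 did (Hoxa9, Hoxd9 and Hoxd13). Hoxa11 passed with total counts (adjusted p = 0.0393), and with thinned counts Hoxa11, Hoxb7 and Hoxd3 passed and Hoxd9 did not (0.0375, 0.0468, 0.0240 and 0.0528). Shares depended on the length used. With lengths taken from the transcript that has the longest coding sequence, cluster b had 42.5%, cluster c 23.5%, and paralogs 1 to 3, 4 to 8 and 9 to 13 had 18.3%, 49.2% and 32.5%. Per kb of merged exons, paralogs 1 to 3 had 13.9% and 4 to 8 had 50.6%. Without members that share exons, clusters a, b and c had 12.5%, 48.7% and 25.4%. Per kb of unshared exon, 4 pairs of neighbours in the order were separated in place of 2. Of the members below 1 CPM, Hoxb13 and Hoxc11 had too few counts to be tested.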
